A study of Mus musculus with 3 samples.

Results

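Cluster 6 held 498 of the 5806 type 1 conventional dendritic cells (cDC1s) that the study deposited from mouse tumours. Its cells are those to which the authors' clustering, with clusters numbered 0 to 11, gave the number 6, matched by library and barcode to the deposited count matrices. The study groups cluster 6 with clusters 0, 2, 3 and 5 as resting cDC1s, and names Fos, Jun and Dusp1 for clusters 2, 3 and 6. The clustering was made from the expression of these same cells, so a gene's level in cluster 6 against the other cDC1s is given as a description, with no test.

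As background, cDC1s are the dendritic cells best known for taking up material of dying tumour cells and presenting its peptides on MHC class I to CD8 T cells. A resting cDC1 carries the genes of its lineage but few of the genes for migration to lymph nodes and for co-stimulation that a mature cDC1 turns on. Immediate early genes, such as Fos, Jun and Dusp1, are transcribed within minutes of a stimulus with no need for new protein, and their messenger RNAs are short-lived.

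Tumours came from mice of several genotypes, which the study included to vary cross-presentation by cDC1s. Dendritic cells were sorted from MCA205 LA OVA tumours, grown from a fibrosarcoma line that carries ovalbumin, after 5 days of growth on both flanks. Sorted pre-cDCs, cDC1s and cDC2s (conventional dendritic cells of type 2) were mixed at 1:1:2 and profiled by droplet single-cell RNA sequencing, 1 library per genotype. WT, sGSN-/- and sGSN-/-Clec9a-/- mice were all C57BL/6J, co-housed and 6 to 20 weeks old. Males and females numbered 25 and 12 in the WT pool, 15 and 16 in the sGSN-/- pool, and 10 and 17 in the pool of sGSN-/-Clec9a-/- mice. sGSN-/- mice lack secreted gelsolin, a plasma protein that binds actin filaments. sGSN-/-Clec9a-/- mice lack in addition DNGR-1, the receptor encoded by Clec9a, with which cDC1s sense actin filaments exposed on dead cells. Tumours of a genotype were pooled and sorted in parallel with the others, on several cell sorters, so genotype, pool, sex mix and library cannot be told apart.

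In what follows, 3 values in a row stand for WT, sGSN-/- and sGSN-/-Clec9a-/-, in that order. The libraries held 176578136, 109270958 and 113411930 UMIs (counts of single captured RNA molecules) over 12763, 8173 and 9273 barcodes. Cluster 6 held 2007869, 994839 and 1488302 of these UMIs. The WT and sGSN-/- libraries shared 26 barcodes, WT and sGSN-/-Clec9a-/- shared 28, and sGSN-/- and sGSN-/-Clec9a-/- shared 27. Among cDC1s, 2, 2 and 3 barcodes were shared by these pairs, and among the cells of cluster 6 none was (0 in each pair).

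Cluster 6 was present in every genotype at a similar share of the cDC1s. It made up 207 of 2316 cDC1s in WT, or 8.94% (exact Clopper-Pearson 95% interval 7.81 to 10.2%). In sGSN-/- it made up 125 of 1712, or 7.30% (6.11 to 8.64%), and in sGSN-/-Clec9a-/- 166 of 1778, or 9.34% (8.02 to 10.8%). The intervals overlap, and they cover counting error only, as do all intervals below. With 1 library per genotype the shares were not tested against each other.

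The cells of cluster 6 were shallow. The median cell held 9374, 7237 and 8288.5 UMIs, against 14348, 14469 and 12477 in the other cDC1s. Over all 498 cells the median was 8530.5, with a range from 1493 to 29934, so deep cells were also among its members. The median number of genes with a UMI was 2685, 2256 and 2399.5, against 3104, 3057 and 2742.5 in the other cDC1s. At equal depth, that order turned round. With every cell thinned at random to 3900 UMIs, the median cell of cluster 6 showed 1552, 1553 and 1479 genes, against 1422, 1417 and 1370. A cell of cluster 6 thus spread an equal number of UMIs over more genes than another cDC1 did, in each library.

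**Figure D1:**
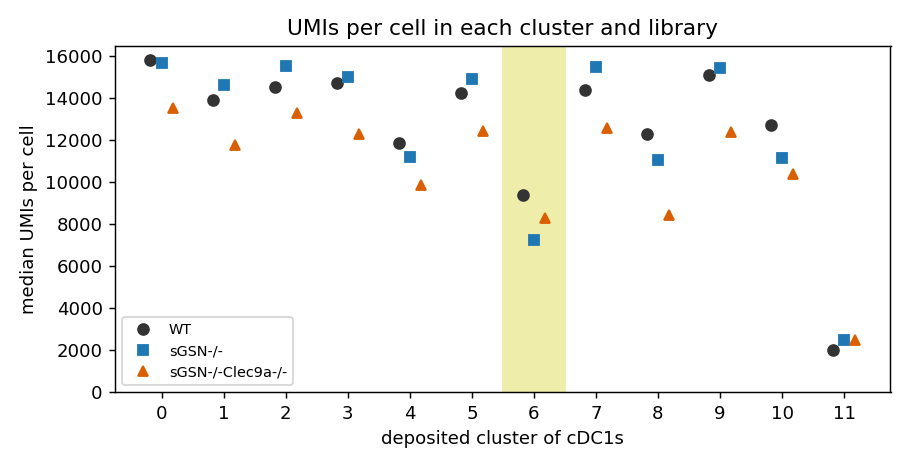
Median UMIs per cell (vertical axis) in each of the authors' cDC1 clusters (horizontal axis), 1 point per library, with cluster 6 shaded. Cluster 6 lies at 9374, 7237 and 8288.5 UMIs in WT, sGSN-/- and sGSN-/-Clec9a-/-.

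In the median cell, the share of mitochondrial UMIs was close to that of the other cDC1s, although shallow cells of cluster 6 had more than its deep cells. Summed over all cells, mitochondrially encoded genes were higher in each library. They stood at 19103, 23807 and 23891 CPM in cluster 6, against 16312, 17190 and 19952 CPM in the other cDC1s, with CPM as UMIs scaled to the same total. The median cell of cluster 6 had 1.63%, 2.09% and 2.10% of its UMIs in mitochondrially encoded genes, against 1.57%, 1.64% and 1.94% in the other cDC1s. In cluster 11, which the study takes as likely dying cells, the median cell had 8.07% and 2348 UMIs. A score for barcodes that hold more than 1 cell placed 1 of the 498 cells (0.201%) among the highest scores of its library.

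Of the 3 genes that the study names, Dusp1 was higher in cluster 6 in all 3 libraries, while Fos and Jun did not pass 1.5-fold. Dusp1 encodes a phosphatase that switches off MAP kinases, and it stood at 1687, 1332 and 1256 CPM (a gene's UMIs scaled to the same total for every group of cells) in cluster 6, against 678, 522 and 678 CPM in the other cDC1s. Its log2 ratio was 1.18 ± 0.26 (mean ± SD over the libraries, n = 3, as for every ± below), and it was higher in all 3 libraries. Fos encodes a subunit of the AP-1 transcription factor and stood at 3610, 3312 and 3106 CPM, against 2929, 2538 and 2736 CPM, a log2 ratio of 0.29 ± 0.10. Jun, its partner in AP-1, stood at 885, 847 and 661 CPM, against 739, 616 and 595 CPM, a log2 ratio of 0.29 ± 0.16. Fos and Jun thus lay near the median of all genes in this comparison, and both turn to -0.04 when libraries are scaled by TMM (the trimmed mean of M values, which sets the typical gene near no difference). Under TMM, Dusp1 stayed above the other cDC1s in each library. In sGSN-/-Clec9a-/- it then fell short of 1.5-fold, so its call in all 3 libraries rests on the scaling. The highest Fos belonged to cluster 3, with 5666, 4908 and 5290 CPM, and cluster 3 also exceeded cluster 6 in Jun, with 1724, 1399 and 1355 CPM. Fos was above cluster 6 in each library in cluster 2 (4000, 3995 and 3949 CPM) and in cluster 9 (4399, 3654 and 3469 CPM) as well. Jun in cluster 9, at 1929, 1336 and 1342 CPM, exceeded cluster 6 too, and was the highest of all clusters in WT. Against cluster 3, the log2 ratio of cluster 6 was -0.66 for Fos, -0.91 for Jun and 0.24 for Dusp1. Dusp1 was highest in cluster 6 in WT and in sGSN-/-, and in cluster 3 in sGSN-/-Clec9a-/-, where cluster 3 had 1334 CPM. At matched depth, Fos stood further above the other cDC1s in the shallow cells than in the deep ones. In 4 equal bins of cluster 6 from shallow to deep, against other cDC1s of the same depth, Fos was at 0.68, 0.65, 0.41 and 0.18, and Jun at 0.40, 0.03, -0.02 and 0.38. The median of all genes at matched depth was 0.16. Fos and Jun were thus not highest in cluster 6 among the clusters, while the word shallow fits its UMIs.

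Across all genes, more genes were higher than lower in cluster 6, a split that rests on the scaling. Of 4848 genes at 20 CPM or more, 1003 (20.7%) were higher than in the other cDC1s by 1.5-fold in each library, and 362 (7.47%) were lower. The median gene was itself shifted, with a log2 ratio of 0.23 (0.21, 0.23 and 0.23), so lists are also given relative to this median. Under TMM the median gene stood at -0.11, and 282 genes were higher and 1006 lower, so that 21.9% of the called genes were higher in place of 73.5%. All 282 were among the 1003, and the 1006 held all 362. The shift had its counterpart in the most abundant genes. The 266 genes at 500 CPM or more had a median of -0.28 (-0.61 under TMM) and took 56.1% of the UMIs of cluster 6, against 60.1% in the other cDC1s. The 2292 genes from 20 to 50 CPM had a median of 0.29 (-0.04 under TMM). These abundance classes were chosen after the values were seen.

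A large part of these genes were also called at equal depth. When the other cDC1s were weighted to the depths of cluster 6, 691 genes were higher and 328 lower, of which 661 and 274 were among the calls above, and the median gene was at 0.16. With every cell thinned to 3900 UMIs, 928 were higher and 353 lower, of which 777 and 271 were shared. Against the other 3001 resting cDC1s, 932 of 4816 genes were higher (19.4%) and 267 lower (5.54%), with a median of 0.25. Against cluster 2, with 816 cells, 866 of 4849 genes were higher (17.9%) and 198 lower (4.08%), with a median of 0.27. Against cluster 3, with 684 cells, 594 of 4892 genes were higher (12.1%) and 164 lower (3.35%), with a median of 0.19. In all, 413 genes were higher and 96 lower in all 4 of these comparisons, which share the cells of cluster 6 and have nested comparison groups, so that the counts overlap by design. Under TMM the counts were 190 higher and 961 lower against the resting cells, 296 and 707 against cluster 2, and 221 and 487 against cluster 3.

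Immediate early genes as a group were higher in cluster 6 than in the other cDC1s, led by members other than Fos and Jun. Of 34 measured, 16 were higher in all 3 libraries and 0 lower, where 20.7% of all genes were higher. Their median log2 ratio was 0.67, which is 0.44 above the median of all genes. Under TMM the median was 0.34, which is 0.45 above that of all genes. There 3 of 34 were higher and 1 lower, where 282 of 4846 genes were higher and 1006 lower. Their summed level was 29484, 27475 and 26993 CPM, against 19921, 18610 and 19219 CPM in the other cDC1s. Each library of cluster 6 was above each library of the other cDC1s. In cluster 3 the same sum was higher still, at 32364, 29711 and 29865 CPM. The median cell of cluster 9 also had more than that of cluster 6 in each library. Immediate early genes took 3.39%, 3.07% and 2.84% of its UMIs, against 2.74%, 2.54% and 2.65% in cluster 6. Against cluster 3 only 4 of the 34 genes were higher in cluster 6 and 4 were lower, where 12.1% and 3.35% of all genes were. The median was 0.65 against cDC1s weighted to the same depth, close to the value without weights.

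The nuclear receptors of the Nr4a family and the zinc finger factors of the Egr family, both made in response to signals at the cell surface, were among its highest members. Nr4a3 stood at 626, 408 and 502 CPM, against 210.0, 208 and 204 CPM in the other cDC1s, a log2 ratio of 1.28 ± 0.30. It was also higher against cluster 3, at 1.70. Egr3 stood at 615, 637 and 606 CPM, against 245, 236 and 294 CPM (1.27 ± 0.20). Egr2 had a log2 ratio of 1.26 ± 0.38 and Egr1 of 1.12 ± 0.20. Fosb, a further AP-1 subunit, stood at 1482, 1378 and 1353 CPM, against 666, 615 and 678 CPM (1.10 ± 0.09). Nr4a1 (0.88 ± 0.03) and Nr4a2 (0.96 ± 0.06) were higher as well, as was Zfp36 (0.87), whose protein brings on the decay of short-lived messenger RNAs. Nr4a3, Egr3, Egr2, Egr1, Fosb, Nr4a1, Nr4a2 and Zfp36 kept positive ratios under TMM. Of the 34 members, however, only 3 still passed 1.5-fold in all 3 libraries there, namely Nr4a3, Egr3 and Fosb. Not all members followed, since Atf3, a stress-responsive factor, was at 0.06 (negative under TMM) and Dusp2, a phosphatase related to Dusp1, at -1.04. Members of lists that are named here and below for their ratios were in part chosen after their values were seen.

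The cAMP response element, the 8 letters TGACG and TCA in a row, contains the shorter core TGACG, and CREB and related factors, known to act on some immediate early genes, can bind it. Both were searched on both strands in the 250 bases before each gene's start, so a core is also counted as CGTCA, and each full element holds a core on either strand. Of the 16 higher immediate early genes, 13 had a promoter sequence. The full element was in 2 of them (15.4%: Dusp1 and Ppp1r15a), against 439 of 27025 promoters in all (1.62%). The core was in 8 (61.5%), against 4827 (17.9%), and the CArG box, the motif of serum response factor, was in 1 (7.69%: Zfp36), against 378 (1.40%). Of all 34 immediate early genes, 30 had a sequence, and 3 held the full element (10%), 15 the core (50%) and 2 the CArG box (6.67%). A match is a description of the letters and says nothing of binding in these cells.

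The promoters of 4 genes are printed, chosen after their values were seen: Dusp1 and Nr4a3, high in cluster 6, beside Fos and Jun, which did not pass 1.5-fold. They are from RefSeq, GRCm38.p6, 5′ to 3′ on the gene's strand, with full elements and cores in capitals: Dusp1 at chr17:26508473-26508722 (minus strand), Nr4a3 at chr4:48045055-48045304 (plus strand), Fos at chr12:85473640-85473889 (plus strand) and Jun at chr4:95052223-95052472 (minus strand). Dusp1 holds a full element, Nr4a3 holds 4 cores, Fos holds 2, and Jun holds 0 in this window.
Dusp1: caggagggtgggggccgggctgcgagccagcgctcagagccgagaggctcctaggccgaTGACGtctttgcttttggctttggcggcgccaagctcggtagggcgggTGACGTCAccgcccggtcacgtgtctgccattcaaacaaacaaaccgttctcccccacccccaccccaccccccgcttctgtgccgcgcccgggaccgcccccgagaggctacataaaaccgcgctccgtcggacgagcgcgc
Nr4a3: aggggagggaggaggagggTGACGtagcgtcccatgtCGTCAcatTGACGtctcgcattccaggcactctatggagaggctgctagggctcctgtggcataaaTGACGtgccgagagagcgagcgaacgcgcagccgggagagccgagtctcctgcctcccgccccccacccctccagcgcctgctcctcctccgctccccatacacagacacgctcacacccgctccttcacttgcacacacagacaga
Fos: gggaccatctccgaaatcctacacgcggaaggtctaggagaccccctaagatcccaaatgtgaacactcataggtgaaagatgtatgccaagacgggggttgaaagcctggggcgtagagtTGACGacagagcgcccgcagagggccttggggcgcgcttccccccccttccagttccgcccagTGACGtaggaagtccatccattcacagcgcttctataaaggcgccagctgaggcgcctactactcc
Jun: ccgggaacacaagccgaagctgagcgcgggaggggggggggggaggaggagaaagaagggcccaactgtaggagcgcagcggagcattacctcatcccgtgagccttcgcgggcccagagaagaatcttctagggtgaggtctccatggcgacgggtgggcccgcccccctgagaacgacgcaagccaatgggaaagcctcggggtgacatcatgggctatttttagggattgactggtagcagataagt

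The genes that define the cDC1 lineage were high in cluster 6. Of 17 measured, 10 were higher than in the other cDC1s in all 3 libraries and 0 lower, with a median log2 ratio of 0.77, or 0.55 above all genes. Under TMM 5 were higher and the median was 0.44, or 0.56 above all genes. Of all genes, 20.7% were higher than in the other cDC1s, and 282 of 4846 under TMM. The list, 18 genes with Cd8a, which lay below 20 CPM, summed to 9043, 9142 and 8660 CPM, against 5974, 5820 and 5814 CPM. Every library of cluster 6 was above every library of the other cDC1s. Against cluster 3 the median was 0.47 with 6 higher (12.1% of all genes were higher there), and against all other resting cDC1s 0.59 with 5 higher (19.4%). Against cluster 2 the list was not set apart from all genes, with 3 of 17 higher (17.9% of all genes) and a median of 0.26 where all genes had 0.27.

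Flt3, the receptor for the cytokine on which dendritic cells depend, stood at 426, 412 and 361 CPM, against 149.7, 143 and 149 CPM in the other cDC1s (1.43 ± 0.14). Xcr1, the chemokine receptor used to sort cDC1s, had a log2 ratio of 0.77 ± 0.04 and Naaa, a lysosomal amidase of cDC1s, of 0.75. Wdfy4, which cDC1s need to cross-present cell-bound antigen, stood at 863, 948 and 849 CPM, against 384, 385 and 412 CPM (1.17 ± 0.13). Cadm1, an adhesion molecule of cDC1s, was at 1.17, Itgae, the integrin chain CD103, at 0.89, and Bcl6, a transcriptional repressor, at 1.13. The lineage factors themselves were not among the higher genes. Irf8 was at 0.38, Id2 at -0.14 and Batf3 at -0.39, each short of 1.5-fold in at least 1 library.

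**Figure D2:**
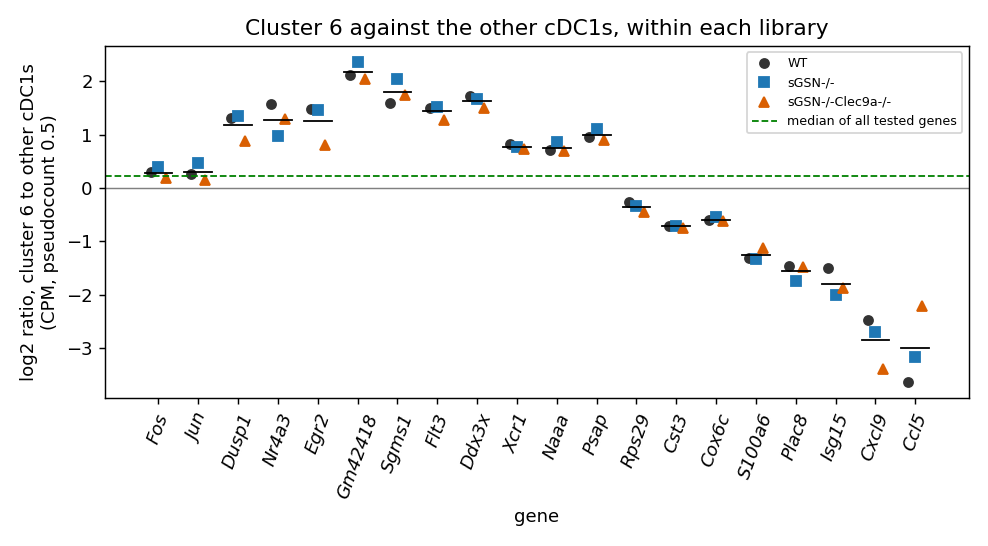
Log2 ratio of CPM in cluster 6 to the other cDC1s (vertical axis) for 20 genes (horizontal axis), with 1 point per library and a bar at the mean. The dashed line is the median of all genes, 0.23. Dusp1, Nr4a3, Gm42418 and Flt3 lie above it in each library, and Cxcl9, Ccl5, Isg15 and S100a6 below it. Fos and Jun lie near it and turn to -0.04 under TMM.

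Among genes at 50 CPM or more that were higher in all 3 libraries, the largest mean ratio was that of Gm42418, a gene model that overlaps a ribosomal RNA repeat. It stood at 40695, 48898 and 72914 CPM in cluster 6, against 9366, 9499 and 17628 CPM in the other cDC1s, a log2 ratio of 2.18 ± 0.17 (1.85 under TMM and 1.80 at matched depth). The difference was smaller among shallow cells. Against other cDC1s of the same depth, it was 0.40 in the shallowest of 4 equal bins of cluster 6, then 1.30, 2.18 and 2.25. Of the 12 clusters, cluster 6 had the highest level in each library. Lars2 (1.66 ± 0.15) and Gm26917 (1.64 ± 0.07), which share sequence with ribosomal RNA repeats, were higher too. AY036118, a further gene model of this kind, was not higher, at 667, 658 and 1008 CPM against 915, 966 and 1559 CPM (-0.55 ± 0.09). Reads of these 4 genes cannot be assigned to a single locus, so their identity is uncertain. Their summed level was 41901, 50145 and 74665 CPM, against 10462, 10634 and 19431 CPM. In the median cell, Gm42418 took 3.77%, 4.36% and 7.28% of the UMIs, against 0.67%, 0.715% and 1.41%.

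Some RNAs that stay in the nucleus were higher, in part depending on the setting. Of 4 long noncoding RNAs of the nucleus, 3 were higher in all 3 libraries and 0 lower, where 20.7% and 7.47% of all genes were. Their median log2 ratio was 0.85. Under TMM 1 of them was higher (median 0.52), as was 1 at matched depth (0.59) and 1 against cluster 3 (0.60). Of all genes, 282 of 4846 were higher and 1006 lower under TMM. At matched depth 691 of 4921 genes were higher, and 12.1% were against cluster 3. Neat1, the scaffold of paraspeckles, was at 1.33 ± 0.32, Kcnq1ot1, an imprinted antisense RNA, at 1.03, and Xist, the RNA that silences an X chromosome in females, at 0.67. Malat1, a nuclear speckle RNA, was at 0.44. Of 25 splicing genes, 4 were higher and 0 lower, a share below the 20.7% over all genes, with a median of 0.32 (-0.01 under TMM, with 1 higher and 2 lower). The 4 were Ddx17, an RNA helicase (1.13), Ccnl1, a cyclin of nuclear speckles (0.95), Clk1, a kinase of splicing factors (0.70), and Rbm25, an RNA-binding protein (0.65). They were named after their values were seen.

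Long genes were higher and short genes lower in cluster 6. Exonic lengths were known for 4844 of the 4848 genes (99.9%). In the shortest of 4 equal bins by exonic length, 204 to 1883 bases, the median log2 ratio was -0.47, with 14 genes higher and 257 lower. In the next bins it was 0.06 and 0.46, and in the bin from 5118 to 123179 bases it was 0.71, with 561 higher and 7 lower. The bins were not run under TMM. There 282 of 4846 genes were higher and 1006 lower over all lengths, so the counts and medians of the bins rest on the scaling. The genes higher in all 3 libraries had a median exonic length of 5536 bases, the lower genes 1291 and all others 2846. Length and ratio thus went together over the genes. Spearman's rho across the 4844 genes was 0.68 for exonic length, 0.54 for the span on the genome and 0.49 for the number of exons, as a description of genes that are not independent replicates. Without the genes of ribosomal proteins, of oxidative phosphorylation and of mitochondrial DNA it was 0.67 for exonic length over 4673 genes.

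The relation to length held against the other cDC1s at matched depth, the other resting cDC1s and cluster 3, with smaller values among shallow cells of other clusters. Against cDC1s weighted to the same depth, the medians of the bins by exonic length were -0.42, 0.03, 0.39 and 0.58, against the other resting cDC1s they ran from -0.44 to 0.69, and against cluster 3 from -0.37 to 0.58. Among the cDC1s outside clusters 6 and 11, 167, 124 and 233 shallow cells, at median depths of 6853, 4084.5 and 5995 UMIs, were set against deep ones at 14790, 14973.5 and 13091 UMIs, a comparison chosen after the values of cluster 6 were seen. There the bins stood at -0.19, 0.04, 0.19 and 0.35. The part of depth, of RNA handling and of cell state in the relation to length was not tested.

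**Figure D3:**
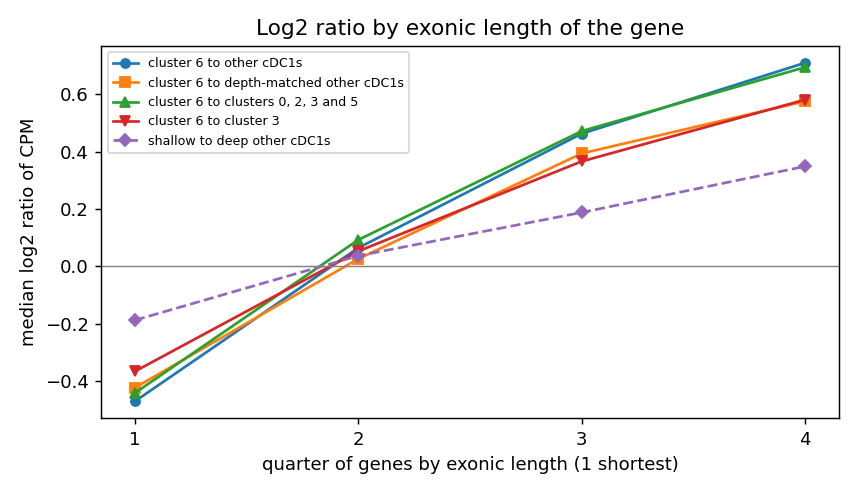
Median log2 ratio (vertical axis) of genes in 4 equal bins by exonic length (horizontal axis), 1 line per comparison. For cluster 6 to the other cDC1s the medians go from -0.47 to 0.71, and for shallow to deep cells among the other cDC1s from -0.19 to 0.35.

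Shallow cells of the other clusters were also a different mix of clusters. In the shallowest depth bin, cluster 8, of activated cells, made up 15.6%, 27.1% and 8.06% of the cDC1s outside cluster 6, against 2.47%, 4.198% and 2.15% in the deepest. Cluster 11 made up 11.7%, 29.4% and 12.9% of that shallowest bin, and it enters the comparisons at matched depth but not those of shallow to deep cells. Over the 3 libraries the programme of Ccr7 was at 1.72 and NF-kB genes at 0.84 in shallow against deep cells. Depth and mix of clusters cannot be told apart in these values or in those at matched depth. Against deep cells, their immediate early genes had a median log2 ratio of 0.07, where cluster 6 had 0.67 against the other cDC1s, and their cDC1 lineage genes -0.12, where cluster 6 had 0.77. Their mitochondrially encoded genes were at 0.66, where cluster 6 had 0.21. They were closer to cluster 6 in ribosomal protein genes (-0.33 and -0.44), in the genes that overlap ribosomal RNA repeats (1.11 and 1.65) and in nuclear long noncoding RNAs (0.63 and 0.85). The difference between these groups was not tested.

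Genes of ribosomal proteins and of oxidative phosphorylation were lower more often than all genes. Where 7.47% of all genes were lower, 16 of 81 ribosomal protein genes were lower in all 3 libraries and 0 higher, with a median log2 ratio of -0.44, or -0.67 relative to all genes. Under TMM 51 were lower, where 1006 of 4846 genes were, and the median was -0.77, or -0.66 relative to all genes. Short genes at large were as low. The shortest of 4 equal bins by exonic length had a median of -0.43 after genes of ribosomal proteins, of oxidative phosphorylation and of mitochondrial DNA were left out. In the median cell they took 17.7%, 16.96% and 17.5% of the UMIs, against 23.8%, 23.5% and 24.9% in the other cDC1s. Cluster 6 was low in each library. Rps2, of the small subunit, was among the lowest at -0.99, and Rpl15, of the large subunit, stood at -0.97, whereas Rps29 was at -0.35, Rps28 at -0.23 and Rpl37a at 0.07 (negative under TMM), so that the list did not move as 1 block.

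Nuclear genes of oxidative phosphorylation were lower still. Of 77 measured, 0 were higher and 30 lower, with a median of -0.63 (-0.95 under TMM, with 60 lower, and -0.43 against cluster 3, with 8 lower). Of all genes, 7.47% were lower than in the other cDC1s and 3.35% lower than in cluster 3. Under TMM 282 of 4846 genes were higher and 1006 lower, which stands beside all counts under TMM in this paragraph. Atp5g1, a subunit of ATP synthase, stood at 142, 145 and 157 CPM, against 318, 336 and 326 CPM (-1.14), and Sdhb, of succinate dehydrogenase, at -1.07. The 13 mitochondrially encoded genes of the same complexes were not: 0 were higher and 0 lower, and their median of 0.21 lay 0.02 under that of all genes, at -0.11 under TMM and at -0.02 against cells of matched depth, cluster 11 among them. Genes of translation factors had a median of -0.20 with 1 of 16 higher, Eif4g2 (0.66), and 1 lower, Eif5a (-0.85), near the 7.47% over all genes, and under TMM a median of -0.53 with 0 higher and 7 lower. Eif4g2 is a relative of the scaffold of cap-binding initiation factors, and Eif5a helps ribosomes past difficult stretches. In glycolysis the median was -0.10, with 1 of 10 higher and 1 lower (-0.43 under TMM, with 1 higher and 2 lower). Pfkp, which commits sugar to glycolysis, was at 1.17 ± 0.06 and Gapdh, further down the pathway, at -1.11 ± 0.09.

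Protein folding genes are given by compartment. Of 16 genes of the unfolded protein response in the endoplasmic reticulum, 1 was higher and 5 lower, where 20.7% and 7.47% of all genes were. The median log2 ratio was -0.21. Under TMM it was -0.53, with 0 higher and 7 lower, where 282 of 4846 genes were higher and 1006 lower. Against the other resting cDC1s it was -0.27, with 1 higher and 5 lower (19.4% and 5.54% of all genes). Against clusters 2 and 3 the list was close to all genes, at 0.07 above and 0.08 under their median, with 3 and 2 higher and 1 lower in each. Of all genes, 17.9% and 12.1% were higher there, and 4.08% and 3.35% lower. Atf4, a factor that drives amino acid and stress genes, was higher (0.78), a call that was lost under TMM. Manf, a protein of the endoplasmic reticulum, stood at 95.1, 132 and 130.3 CPM, against 259, 296 and 271 CPM (-1.22). Sdf2l1, a partner of the chaperone BiP, was at -1.65, and Hspa5, which encodes BiP, at 0.11 (negative under TMM). Of 11 heat shock genes, 3 were higher and 0 lower, a share near the 20.7% over all genes, with a median of 0.29 (-0.04 under TMM, with 2 higher and 1 lower). Against cluster 3, 4 were lower and 0 higher, where 3.35% and 12.1% of all genes were. Hspa1b, an inducible chaperone whose copy Hspa1a is nearly the same in sequence, stood at 1066, 644 and 515 CPM, against 475, 229.6 and 177 CPM (1.40 ± 0.20), and Hspa1a was at 0.39. Reads of the pair cannot be fully told apart. Hsph1 (1.14) and Bag3 (1.06), which work with it, completed the 3.

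Antigen presentation and lysosomal genes were no more often higher than all genes (20.7%). None of 10 MHC class II genes passed 1.5-fold in all 3 libraries (0 higher, 0 lower), and their median of -0.27 lay 0.50 under that of all genes. Under TMM 2 were lower and the median was -0.60, or -0.49 relative to all genes. Of all genes, 282 of 4846 were higher and 1006 lower there, which stands beside all counts under TMM in this paragraph. Ciita, the regulator that switches these genes on, was at 0.71, while Cd74, the invariant chain, was at -0.31, H2-Ab1 at -0.32 and H2-Eb1 at -0.44. Of 13 genes of the MHC class I pathway, 2 were higher and 1 lower, with a median of 0.19 (-0.14 under TMM, with 1 higher and 4 lower). The higher genes were Wdfy4 and Tapbp, which helps load peptides (0.81). The lower gene was Psmb8, a subunit of the immunoproteasome (-1.01). Of 12 lysosomal genes, 2 were higher and 2 lower, with a median of -0.23. Under TMM 0 were higher and 3 lower, with a median of -0.56, so the higher calls named next rest on the scaling. Psap, the precursor of lipid-degrading cofactors, was higher (0.99 ± 0.10), as was Lamp2, a membrane protein of the lysosome (0.86). Cst3, an inhibitor of cathepsins that is abundant in dendritic cells, was lower (-0.72), as was Lgmn, a protease (-1.41).

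The measured genes of early cDC1s, and some genes of activated cDC1s, were low in cluster 6. Of a list of 10 genes of early cDC1s, 7 were measured at 20 CPM or more, and these 7 were lower in all 3 libraries, with a median of -1.26. The study named S100a4, S100a6 and Ifitm1 of them from these libraries, so the list is no independent evidence. S100a6, a calcium-binding protein, stood at 223, 224 and 237 CPM, against 557, 566 and 520.1 CPM (-1.26 ± 0.11). Ifitm3, an antiviral membrane protein, was at -1.37. Among resting cells alone, the median was -0.64 with 2 lower, and against cluster 3 it was -0.39 with 0 lower. The 3 genes that the study named for cluster 0 had a median of -0.34, with 0 past 1.5-fold in either direction.

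Ccr7, the receptor that guides mature dendritic cells to lymph nodes, stood at 2.99, 0 and 0.672 CPM in cluster 6, against 82.3, 139 and 32.4 CPM in the other cDC1s. Il12b, a subunit of interleukin 12, stood at 4.48, 1.01 and 4.03 CPM, against 87.8, 129.7 and 37.2 CPM. Both were near 0 in cluster 6 in each library, a comparison with cDC1s that include the activated clusters. For genes so low in cluster 6 that they reach 20 CPM only through the other cDC1s, no count or median is given, since their direction is built in. Isg15, a ubiquitin-like protein induced by interferon, stood at 71.7, 67.3 and 56.4 CPM, against 203, 274 and 209 CPM (-1.80). Genes induced by type I interferon were not low against the other resting cDC1s. Of 7 measured there, 3 were higher and 0 lower, with a median of 0.71 (19.4% of all genes higher). Against cluster 2, 0 of 7 were higher (17.9% of all genes), with a median of 0.42. Against cluster 3, 3 of 7 were higher (12.1%), with a median of 0.56. This list was not run under TMM in these comparisons. Cxcl9, a chemokine for T cells, stood at 23.9, 26.1 and 15.5 CPM, against 136, 173 and 167 CPM. Ccl5, another such chemokine, stood at 7.97, 23.1 and 13.4 CPM, against 106, 211 and 64.6 CPM (-3.01 ± 0.72). Against resting cells alone it was at 0.35.

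Target genes of NF-kB, a factor activated by danger signals, were more often higher against resting cells than against the cDC1s at large. Against the other cDC1s at large their median was 0.33 with 3 of 14 higher and 1 lower, near the 20.7% and 7.47% over all genes. It was 0.00 under TMM, with 0 higher and 3 lower, and 0.09 at matched depth, with 0 higher and 3 lower. Of all genes, 282 of 4846 were higher and 1006 lower under TMM, and 691 of 4921 higher and 328 lower at matched depth. Against resting cells it was 0.75 with 6 higher and 0 lower, where all genes had a median of 0.25 and 19.4% higher. Against cluster 2 it was 0.84 with 8 of 15 higher and 1 lower (all genes 0.27 and 17.9%), and against cluster 3 0.53 with 6 of 14 higher and 0 lower (0.19 and 12.1%). The list was not run under TMM in these 3 comparisons. The genes higher against the other cDC1s were Nfkb1, a subunit of NF-kB (0.82), Birc3, an inhibitor of cell death (0.75), and Tnfaip3, which damps the pathway (0.70). These 3 calls were lost under TMM and at matched depth. Nfkbia, the inhibitor that holds NF-kB in the cytoplasm, was lower (-0.72).

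Further genes among the 15 highest included enzymes and RNA regulators. Sgms1, which makes sphingomyelin, stood at 238, 285 and 249.95 CPM, against 78.5, 69.0 and 74.0 CPM (1.79 ± 0.23). Ddx3x, an RNA helicase, stood at 476, 418 and 394 CPM, against 144, 132 and 139 CPM (1.63 ± 0.12). Tob2, an antiproliferative protein, stood at 575, 476 and 509 CPM, against 196, 177 and 184 CPM (1.48 ± 0.06). Each was more than 2 times as high in every library. They were picked for large ratios of 1 sign in the 3 libraries, so this is in part built in. Against other cDC1s of matched depth, Ddx3x was at 0.90, 0.45 and 0.94 in the shallowest bin of cluster 6, and Tob2 at 1.54, 1.35 and 1.90. Elmsan1 (1.53), Usp7, a deubiquitinase (1.52), Ccdc88b (1.46), Itgal, the alpha chain of the integrin LFA-1 (1.41), Arap1, a regulator of small GTPases (1.40), BC005537 (1.38) and Fam168a (1.37) complete the 15 with Gm42418, Lars2, Gm26917, Flt3 and Hspa1b.

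The 15 lowest were taken from genes at 50 CPM or more in the mean of both groups, so several pass only through the other cDC1s, and their low place is in part built in. Some of them were low against resting cells as well, and others only against the cDC1s at large. Fdps, an enzyme of cholesterol synthesis, stood at 19.9, 26.1 and 18.8 CPM, against 128, 166 and 101 CPM (-2.56 ± 0.15), and was at -1.39 against resting cells. Plac8 stood at 153, 169.9 and 193 CPM, against 423, 573 and 538 CPM (-1.56 ± 0.16), and was at -0.99 against resting cells. Sdf2l1 (-1.65) and Cenpx, a DNA repair protein (-1.24), were at -1.80 and -1.18 against resting cells. These 4 were thus low on both counts. S100a4, a calcium-binding protein, stood at 35.9, 49.3 and 34.9 CPM, against 152, 146 and 151 CPM (-1.91), but at only -0.29 against resting cells. Ifitm1 went from -1.80 to 0.41. Bcl2a1b, an inhibitor of cell death with close paralogs whose reads are hard to tell apart, was at -1.76. Samsn1, a signalling adaptor, was at -2.12, Klrd1, a lectin-like receptor, at -1.35, and Ms4a6c at -1.24.

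Cells of cluster 6 varied in depth, and its gene groups varied with depth to different degrees. In 4 equal bins of its cells from shallow to deep, chosen after the values were seen, ribosomal protein genes took on average 11.6%, 15.1%, 19.0% and 20.9% of the UMIs (mean of the 3 libraries). Immediate early genes took 2.93%, 2.94%, 2.82% and 2.69%, and mitochondrially encoded genes 4.26%, 2.63%, 1.74% and 1.88%. The share of ribosomal protein genes was thus higher in deep cells and that of mitochondrially encoded genes in shallow cells, while the share of immediate early genes hardly varied with depth. By library, the mitochondrial share was 2.54%, 5.64% and 4.61% in the shallow bin, against 1.77%, 1.73% and 2.14% in the deep one. Over the cells of a library, Spearman's rho of UMIs with the ribosomal share was 0.52, 0.64 and 0.67, with the mitochondrial share -0.07, -0.47 and -0.39, and with the immediate early share -0.04, 0.06 and -0.13 (n = 207, 125 and 166 cells that share a library, a description).

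**Figure D4:**
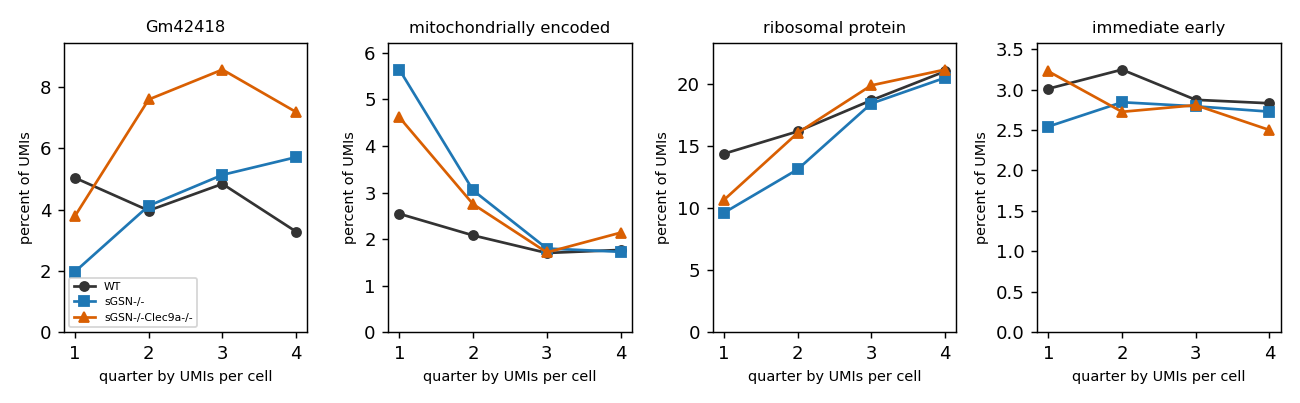
Percent of UMIs (vertical axis) in Gm42418, mitochondrially encoded, ribosomal protein and immediate early genes in 4 equal bins of the cells of cluster 6 from shallow to deep (horizontal axis), 1 line per library. The mean share of ribosomal protein genes goes from 11.6% to 20.9%, and that of immediate early genes from 2.93% to 2.69%.

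Gm42418 did not follow depth in 1 way. From the shallow to the deep bin it took 5.04%, 3.97%, 4.84% and 3.28% of UMIs in WT, 1.98%, 4.13%, 5.13% and 5.71% in sGSN-/-, and 3.79%, 7.59%, 8.56% and 7.18% in sGSN-/-Clec9a-/-. The shallow bin was the lowest in sGSN-/- and in sGSN-/-Clec9a-/-, and the highest in WT. Within cluster 6, cells with more Gm42418 had fewer mitochondrial UMIs, with a rho between the shares of -0.45, -0.71 and -0.60, against 0.01, -0.04 and -0.17 in the other cDC1s. Both shares are parts of the same UMIs.

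Most cells took part in these differences. The share of immediate early genes was above the median of the other cDC1s of the same library in 88.4%, 86.4% and 89.2% of the cells of cluster 6, and that of Gm42418 in 91.3%, 76.8% and 79.5%. The share of ribosomal protein genes was above that median in 9.66%, 8.80% and 8.43%, and that of oxidative phosphorylation genes in 5.31%, 3.20% and 1.81%. For mitochondrially encoded genes it was 53.1%, 58.4% and 56.0%. For Gm42418 a part of the cells lay at the level of the other cDC1s. In sGSN-/- the lower quartile of cluster 6 was 0.744%, against a median of 0.715% in the other cDC1s.

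Neighbours in the authors' map and in expression come from the same values that defined the clusters, so they describe cluster 6 and support nothing. In the deposited UMAP coordinates, 87.5% of the 20 nearest neighbours of its cells were in cluster 6, 4.21% in cluster 3 and 2.87% in cluster 2. With all cells thinned to 3900 UMIs, which left 435 cells of cluster 6 (7.88% of the cells kept), 64.9% of the nearest neighbours of its cells in gene expression were in cluster 6 (66.0%, 66.9% and 62.1% by library). For cells of other clusters that figure was 1.84%. The share was 59.6% without the 4 genes that overlap ribosomal RNA repeats, a setting chosen after seeing the data. Clustered anew at equal depth, the new cluster that held the most of its cells held 86.0% of them (median of 10 seeds), and 82.4% of that new cluster came from cluster 6. Without the 4 genes these medians were 75.1% and 62.5%, with lows of 49.9% and 21.2% over seeds. In summed profile, its mean Spearman's rho over the libraries was 0.88 with cluster 3 and 0.87 with cluster 9 across 4848 genes, a description over genes that are not independent.

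RNA of other cell types was at a low level in cluster 6. The sort had kept cells with CD11c and MHC class II, and left out cells with NK1.1, Cd3e, CD88, Ly6G, TER-119, Ly6D or Siglec-F, among others. Summed over 7 genes of natural killer cells, the level was 169, 238 and 169 CPM, against 178, 216 and 172 CPM in the other cDC1s, mostly Klrk1, a receptor that cDC1s also show here. The 8 T cell genes summed to 2.99, 10.1 and 4.03 CPM (3.39, 7.27 and 3.45 in the others), with Trbc2, a T cell receptor constant segment, the most abundant. The 10 macrophage genes summed to 70.7, 78.4 and 54.4 CPM (103, 67.2 and 85.6), led by Apoe, a lipid carrier. None of these 3 sums set cluster 6 apart from the other cDC1s in all 3 libraries. Against the other resting cDC1s, the sums of natural killer genes (168, 192 and 158 CPM there) and of macrophage genes (62.3, 44.7 and 54.1 CPM) were lower than in cluster 6 in each library. The 7 cDC2 genes summed to 44.3, 55.3 and 45.7 CPM (97.4, 103 and 87.9), led by Tmem176a. This was below the other cDC1s at large and above the other resting cDC1s (36.7, 30.8 and 34.1 CPM) in each library.

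The 6 genes of plasmacytoid dendritic cells summed to 49.3, 46.2 and 58.5 CPM (44.9, 47.4 and 41.1), led by Tcf4, the factor that defines those cells, with Ly6d at 0. The sum was above that of the other cDC1s in WT and sGSN-/-Clec9a-/- only, and Tcf4 itself, at 45.3, 45.2 and 47.7 CPM, was above the other cDC1s (38.0, 37.7 and 32.3 CPM) in each library, but under TMM in sGSN-/-Clec9a-/- only. The 5 neutrophil genes summed to 0, 1.01 and 0 CPM, all of it Csf3r, with S100a8, S100a9, Retnlg and Mmp9 at 0, and the 4 erythroid genes to 0.498, 0 and 0 CPM, all of it Hbb-bs, with Hba-a1, Hba-a2 and Hbb-bt at 0. The 6 fibroblast genes summed to 2.49, 4.02 and 2.02 CPM (2.12, 2.04 and 1.40), led by Col3a1, with Dcn and Lum at 0. The 3 endothelial genes summed to 5.98, 5.03 and 2.69 CPM (6.75, 6.82 and 4.35), led by Kdr, with Cdh5 at 0. The fibroblast sum was above that of the other cDC1s in each library, from 5, 4 and 3 UMIs, and the endothelial sum below it. Markers of these last 4 cell types were thus at or near 0. Not every marker list measured is given here. The part of free RNA from other cells in these sums, and of these sums in the results above, was not tested.

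Few genes of cluster 6 differed between the genotypes by 1.5-fold. Of 1522 genes at 100 CPM or more, 4 (0.263%) were higher and 14 (0.92%) lower by 1.5-fold in sGSN-/- than in WT within cluster 6, and in the other cDC1s 0 (0%) and 7 (0.46%) of the same genes were. Of 1491 genes, 5 (0.335%) were higher and 19 (1.27%) lower in sGSN-/-Clec9a-/- than in sGSN-/-, against 4 (0.268%) and 6 (0.402%) in the other cDC1s. Under TMM the counts of this comparison in cluster 6 were 9 higher and 5 lower, so its balance turned with the scaling. With 1 library per genotype, none of these differences was tested. Some genes, among them Ccl7, Sdf2l1 and Map3k14, reached 100 CPM only in the library where they were higher. The counts include such genes, whose direction is in part built in by the filter. Both comparisons share the sGSN-/- library.

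Clec9a, which the double mutant lacks, checks the label of that library. It stood at 228 CPM in WT (exact Poisson 95% interval 207 to 249 CPM) and 211 CPM in sGSN-/- (183.5 to 242 CPM), with 457 and 210 UMIs. In sGSN-/-Clec9a-/- there were 0 UMIs, which is at least 104.7-fold lower than in sGSN-/- when set against a floor of 3 counts in that library. Gsn, the gelsolin gene, stood at 193, 192 and 196 CPM in cluster 6, against 149, 168 and 164 CPM in the other cDC1s. Counts at the 3′ end add up all isoforms, so they say nothing on the secreted form.

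At 100 CPM or more, the largest difference of sGSN-/- from WT in cluster 6 was in Ccl7, a chemokine for monocytes. Of these 2 genotypes, Ccl7 reached 100 CPM in WT only. It thus passed the filter through the library where it was high, and its direction is in part built in. It stood at 148 CPM in WT (132 to 166), 22.1 CPM in sGSN-/- (13.9 to 33.5) and 30.9 CPM in sGSN-/-Clec9a-/- (22.6 to 41.2), a log2 ratio of -2.71 for sGSN-/- to WT and of -0.34 in the other cDC1s. Few cells carried it. Its 297, 22 and 46 UMIs came from 39, 10 and 17 cells, and the top cell held 13.1%, 22.7% and 26.1% of them. Among genes higher in sGSN-/-, Sdf2l1 (60.8, 111 and 73.2 CPM) was at 0.86, against 0.13 in the other cDC1s. Ier3, an early response gene (97.6, 161 and 154 CPM), was at 0.72, against -0.03. Sdf2l1 and Ier3 were below 100 CPM in WT and above it in sGSN-/-, so their direction is in part built in as well.

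Between sGSN-/-Clec9a-/- and sGSN-/-, Clec9a apart, the largest difference was in Txndc16, a thioredoxin-like protein. It stood at 457 CPM in WT (428 to 487), 586 CPM in sGSN-/- (539 to 636) and 249.95 CPM in sGSN-/-Clec9a-/- (225 to 277), a log2 ratio of -1.23, against 0.21 in the other cDC1s. Of its 917, 583 and 372 UMIs, the top cell held 10.03%, 15.3% and 11.02%. Map3k14, the kinase of the noncanonical NF-kB pathway, stood at 78.2, 48.2 and 102 CPM, a log2 ratio of 1.07, against -0.20 in the other cDC1s. Map3k14 passed the filter of 100 CPM only through sGSN-/-Clec9a-/-, where it was high, so its direction is in part built in. Gm42418 was at 0.58 in cluster 6 and 0.89 in the other cDC1s, so its higher level in sGSN-/-Clec9a-/- was found in the other cDC1s too. The differences between cluster 6 and the other cDC1s in these ratios were not tested.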

How the data were processed

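The deposited matrices hold UMI counts per gene and cell made by the authors with Cell Ranger 6.0.1 on mm10, and the deposited cDC1 table holds the authors' clusters and UMAP coordinates (score values without a unit) from Seurat (4.0.0 per the labels, version 3 per the paper), for cells with at least 200 genes. The members of cluster 6 and the gene lists were chosen with earlier results of these data known.

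Counts of the cells of cluster 6, of the other cDC1s and of clusters 2 and 3 were summed per library and scaled to the same total (CPM). Genes at 20 CPM or more in the mean of both groups were compared by log2 ratio within each library with a pseudocount of 0.5 CPM, and called past 1.5-fold in all 3 libraries. A genotype comparison used genes at 100 CPM or more, which some of them reached in 1 library only. No test was made between cluster 6 and other clusters, which its definition uses, or between genotypes, with 1 library each. Alternatives were TMM scaling, matching or thinning depth, other filters, folds and pseudocounts, leaving out a library, cluster 11 or likely doublets (highest 6% of Scrublet scores per library, kept otherwise), and reclustering (2000 variable genes, 30 components, 20 neighbours, Leiden resolution 1, median of 10 seeds, a number chosen after seeing the data). Cells below 3900 UMIs, the 5th percentile, could not be thinned: 63 of cluster 6 and 225 others. Intervals are exact Clopper-Pearson or Poisson 95% intervals. UMIs per cell in the table equalled the matrix sums in 4559 cells and differed by at most 34 in 1247.

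Genes named by rule were Fos, Jun and Dusp1; the study's cDC1 genes; the 15 largest and 15 smallest mean ratios at 50 CPM or more with 1 sign in the 3 libraries; up to 4 members per list with the highest CPM; the 5 largest and 5 smallest genotype ratios; and Clec9a and Gsn. Exonic lengths are from GENCODE vM21. The steps were tested on simulated data. Versions were Python 3.11.15, numpy 2.4.6, scipy 1.17.1, pandas 2.3.3, scanpy 1.11.5, matplotlib 3.10.9, R 4.3.3 and edgeR 4.0.16.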

Additional observations from a re-analysis of the deposited data

How the results depend on the processing

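The number of genes higher in cluster 6 than in the other cDC1s was 1003, and 282 under TMM, 543 at 50 CPM or more, 161 at 2-fold and 1708 at 5/4-fold. The number of genes lower in cluster 6 than in the other cDC1s was 362, and 1006 under TMM, 44 at 2-fold and 853 at 5/4-fold. Depth matching, thinning, leaving out cluster 11 or likely doublets, and a pseudocount of 2 CPM kept both counts within 1.5 times. So did leaving out 1 library, with 1124 to 1185 genes higher and 438 to 466 lower; fewer libraries then have to pass. Genes higher in sGSN-/- than in WT within cluster 6 numbered 36 at 50 CPM or more, 0 at 200 CPM or more and 43 after thinning, and lower genes 41, 9 and 27. Genes higher in sGSN-/-Clec9a-/- than in sGSN-/- within cluster 6 numbered 24, 1 and 16 in these settings and 9 under TMM, and lower genes 97, 2, 85 and 5. Filters and folds test fewer or more genes by construction; for TMM and thinning the cause was not tested. No called value changed sign. Of 192 named genes, TMM moved the log2 ratio of 131 by more than the SD between libraries, depth matching of 70, thinning of 39 and a pseudocount of 2 CPM of 10; 27, 13, 8 and 0 of the named genes changed sign, and 2 to 10 when 1 library was left out. Reclustered at resolutions of 0.5 and 1.5, and without the genes that overlap ribosomal RNA repeats (chosen after seeing the data), the new cluster held 73.8%, 86.0% and 75.1% of cluster 6. Over seeds the share ran from 71.0% to 89.2% at resolution 1, from 46.9% at resolution 0.5, and from 49.9% without those genes. At resolution 0.5, 4 of 10 seeds gave a new cluster of which only 12.9% to 17.2% came from cluster 6; without those genes that figure had a median of 62.5% and a low of 21.2%. The depth of cluster 6 limits the comparison of genotypes, where a gene at 20 CPM has few UMIs in a library.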

Other observations

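The remaining gene groups of cluster 6 are given against the other cDC1s. In that comparison 20.7% of all genes were higher and 7.47% lower, and under TMM 282 of 4846 were higher and 1006 lower. Of 14 genes of actin dynamics, 0 were higher and 2 lower in all 3 libraries, with a median log2 ratio of -0.23 (-0.56 under TMM, with 6 lower). Tmsb10, which binds actin monomers, was at -0.89 and Arpc3, of the complex that branches filaments, at -0.77. Of 9 genes of the BCL2 family, which sets the threshold for cell death, 1 was higher and 3 lower (20.7% and 7.47% of all genes). Their median was 0.20 (-0.16 under TMM, with 0 higher and 3 lower of 8). Pmaip1, which promotes cell death, was at 0.86 and Bax, which permeabilises mitochondria, at -1.02. Of 4 cell cycle genes, 0 were higher and 1 lower, with a median of -0.49 (2 lower under TMM). These members were named after their values were seen. As values for genes of the sex chromosomes, Xist stood at 409.9, 353 and 419 CPM in WT, sGSN-/- and sGSN-/-Clec9a-/-, against 260.4, 214 and 270.4 CPM, and Ddx3y, on the Y chromosome, at 33.9, 64.3 and 19.5 CPM, against 17.3, 27.6 and 17.7 CPM. Eif2s3y, also on the Y chromosome, was lower in each library, at 9.96, 23.1 and 6.72 CPM, against 15.7, 26.3 and 20.6 CPM. The Y genes Uty and Kdm5d had at most 11 UMIs in a library of cluster 6.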
